A study of Mus musculus with 6 samples.

Results

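Mitochondrial ribosomal protein genes, which encode the protein part of the mitochondrial ribosome (the mitoribosome), were compared between *Rdh10* KO and wild-type mouse embryos by RNA-seq. They were taken by name from the gene table: every protein-coding gene called *Mrpl* or *Mrps* followed by a number, leaving out names with the pseudogene mark -ps. This gave 77 of the 26437 genes of the table, 48 *Mrpl* genes, named for the large subunit, and 29 *Mrps* genes, named for the small subunit. Each group had 3 libraries, and each library was a pool of 3 embryos at E10. *Rdh10* KO embryos were homozygous for a null allele of *Rdh10*, which encodes the retinol dehydrogenase for the first step of retinoic acid (RA) synthesis, and came from matings of heterozygous parents. The null allele is carried in every cell and is not restricted to a tissue, and the mice were outbred, with Black Swiss and C57BL/6 ancestry. The tissue, labelled eye in the titles and craniofacial in the tissue field, was the frontal region of the head with both optic vesicles, and it also held facial tissue and some forebrain. Levels are given as normalized counts, which are the reads of a gene divided by 1 factor for each library. A fold change is the difference between groups in mean log2(normalized counts + 0.1), so that a negative value means a lower level in *Rdh10* KO. The test was limma with Benjamini–Hochberg adjustment over all 22921 genes tested, and an adjusted p-value under 0.05 made a gene decreased or increased. With 3 libraries against 3, an exact permutation test of a single gene cannot go below a two-sided p of 0.1, so such tests are not given.

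Mitochondria keep a small genome of their own, and the few proteins it encodes, all of them parts of the respiratory chain and of ATP synthase, are made by the mitoribosome. Its ribosomal RNAs come from the mitochondrial genome, but every one of its proteins is encoded in the nucleus, made in the cytosol and imported. Some mitoribosomal proteins are related to proteins of bacterial ribosomes and keep their numbers, and others are found only in mitoribosomes. The stem of a name does not always give the subunit: *Mrps18a* and *Mrps30* encode proteins of the large subunit, and the product of *Mrps36* is now assigned to the 2-oxoglutarate dehydrogenase complex of the citric acid cycle.

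The promoters of the members carried letters bound by known activators of nuclear genes for mitochondrial proteins more often than other promoters did. RefSeq promoters (GRCm38.p6, from 250 bases before to 50 bases after the start) were matched by symbol for 68 of the 77 genes. They were searched on both strands for CCGGAAG, a core of sites for ETS factors such as GABPA, for CGCNTGCG, a core of NRF1 sites, and for AAGATGG, a core of YY1 sites. CCGGAAG was in 36.8% of the 68 genes with a promoter, against 16.7% of 12252 tested protein-coding genes and 9.93% of all genes with a promoter. CGCNTGCG was in 29.4% of the 68 genes against 16.8% of the tested protein-coding genes, and AAGATGG in 19.1% against 7.55%. The CCAAT box was in 39.7% against 42.2%, the GC box GGGCGG in 50% against 64.3%, and the TATA box TATAAA in 7.35% against 9.49%. These matches describe the letters of the window and say nothing on whether a factor was bound. Shown here are the promoters of the most strongly decreased genes for each of these motifs, taken from called genes with a single promoter that starts within 50 bases of an annotated start and with the motif inside the 150 bases printed, and that of *Mrpl45*, the gene with the highest fold change of all 77. Decreased genes without a motif in these bases were therefore not printed. Among the genes with the lowest fold changes, *Mrpl20* and *Mrpl41* held none of the 3 motifs in the window. *Mrps18c* held CCGGAAG outside the bases printed. Each sequence runs 5′ to 3′ on the strand of the gene, from 100 bases before the start to 50 bases from it on, with the 3 motifs in capitals on either strand.
*Mrps24*, minus strand, chr11:5707652-5707801: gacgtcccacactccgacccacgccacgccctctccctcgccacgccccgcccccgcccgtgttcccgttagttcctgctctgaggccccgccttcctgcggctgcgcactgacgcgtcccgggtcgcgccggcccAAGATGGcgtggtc
*Mrpl34*, plus strand, chr8:71464826-71464975: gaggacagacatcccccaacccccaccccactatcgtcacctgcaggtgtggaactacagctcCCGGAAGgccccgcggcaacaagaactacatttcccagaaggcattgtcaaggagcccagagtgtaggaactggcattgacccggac
*Mrps22*, minus strand, chr9:98601630-98601779: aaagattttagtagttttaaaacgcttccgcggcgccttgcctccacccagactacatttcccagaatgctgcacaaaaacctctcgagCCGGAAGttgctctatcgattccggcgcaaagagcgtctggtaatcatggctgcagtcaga
*Mrpl35*, minus strand, chr6:71823735-71823884: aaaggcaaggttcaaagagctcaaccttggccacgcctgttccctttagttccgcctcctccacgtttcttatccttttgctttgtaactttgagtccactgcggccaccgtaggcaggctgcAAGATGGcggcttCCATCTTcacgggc
*Mrpl9*, plus strand, chr3:94443236-94443385: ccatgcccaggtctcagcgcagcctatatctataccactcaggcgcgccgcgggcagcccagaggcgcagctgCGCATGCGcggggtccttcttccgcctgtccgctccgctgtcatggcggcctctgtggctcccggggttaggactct
*Mrps21*, minus strand, chr3:95871465-95871614: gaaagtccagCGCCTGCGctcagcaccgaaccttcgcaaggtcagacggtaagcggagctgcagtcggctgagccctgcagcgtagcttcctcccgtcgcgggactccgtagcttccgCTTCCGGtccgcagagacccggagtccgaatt
*Mrpl45*, plus strand, chr11:97315616-97315765: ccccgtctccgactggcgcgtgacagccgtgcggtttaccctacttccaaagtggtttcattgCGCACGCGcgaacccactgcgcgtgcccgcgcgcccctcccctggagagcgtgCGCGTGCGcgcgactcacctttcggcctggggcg

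Most mitoribosomal protein genes were lower in *Rdh10* KO, and none was called higher. The adjusted p-value was under 0.05 with a lower level for 46 of the 77 genes, which is 59.7%, against 9.12% of all genes tested. In limma without the intensity trend, 2 of the 77 and 0.859% of all genes were decreased. In the other direction 0 of the 77 were called, against 10.3% of all genes. The log2 fold change was below 0 for 74 of the 77 genes and above 0 for 3, with a median of -0.35, quartiles of -0.43 and -0.20 and a range from -0.81 to 0.06, while the median over all genes tested was 0.0036. The changes were small: 0 of the 77 genes passed both the adjusted p-value and the log2 cut-off of 0.85 that the study used, which 0.886% of all genes tested passed in this direction. The 3 values of *Rdh10* KO lay below the 3 values of wild-type for 63 of the 77 genes, or 81.8%, against 17.0% of all genes tested, and above them for 0 genes, against 17.6%. Since genes with few reads are seldom called, the 8258 other genes with wild-type means in the range of these genes, *Mrpl53* left aside (222 to 3320 normalized counts), are a closer background: 17.2% of them were called decreased, 27.5% had lower values without overlap, and their median log2 fold change was -0.01. In tissue of mixed cell types, fewer cells of a type and less RNA per cell cannot be told apart.

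**Figure D1:**
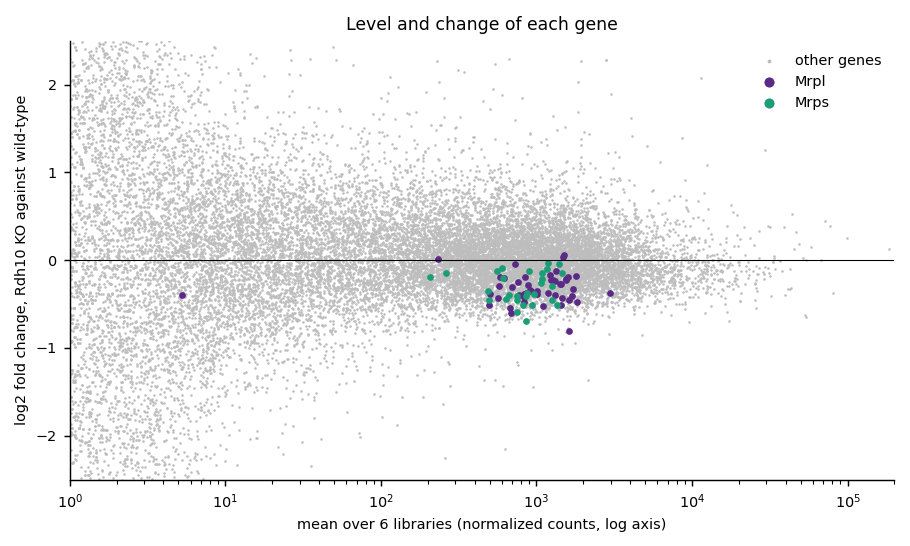
Each point is 1 gene with its mean level over the 6 libraries (normalized counts, log axis) and its log2 fold change in *Rdh10* KO against wild-type. *Mrpl* and *Mrps* genes are coloured and other genes are grey, and genes with a mean under 1 or a log2 fold change beyond the axis are not drawn. Of the 77 coloured genes, 74 lie below 0, between -0.81 and -0.04.

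The counts were similar in both name groups. Of the 48 *Mrpl* genes, 30 were decreased, 38 had lower values without overlap, and the median log2 fold change was -0.34. Of the 29 *Mrps* genes, 16 were decreased, 25 had lower values without overlap, and the median was -0.35. Genes with numbers in the range of bacterial ribosomal proteins (up to 36 for *Mrpl* and up to 21 for *Mrps*), a split by number alone made after the values were seen, were decreased in 26 of 44 cases with a median of -0.37. Those with higher numbers were decreased in 20 of 33 cases with a median of -0.30. The number does not always tell whether a protein has a bacterial counterpart. For comparison, 14 of the 82 tested genes for proteins of the cytosolic ribosome were decreased and 0 increased, with a median log2 fold change of -0.11. The 14 are 17.1%, against 9.12% of all genes tested and 17.2% of the 8258 genes above. The median wild-type mean of the cytosolic genes, 12269 normalized counts, lies above the range of those 8258 genes. Lower values without overlap were found for 33 of the 82, or 40.2%, against 17.0% of all genes tested.

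The difference was present in each *Rdh10* KO library. Summed over the 77 genes, the wild-type libraries held 86166, 88219 and 87555 normalized counts and the *Rdh10* KO libraries 72878, 70453 and 67694. The *Rdh10* KO sum was 80.6% of the wild-type sum, 80.4% for *Mrpl* and 81.0% for *Mrps* genes, and the groups did not overlap. These sums were 0.441% to 0.450% of all normalized counts in wild-type and 0.351% to 0.376% in *Rdh10* KO. Set against the wild-type mean of each gene, the median log2 difference over the 77 genes was -0.28, -0.30 and -0.34 in *Rdh10* KO replicates 1, 2 and 3, and between -0.003 and 0.016 in the wild-type libraries. In these *Rdh10* KO libraries 69, 69 and 70 of the 77 genes were below every wild-type value. Replicate 3 had the lowest of the *Rdh10* KO values for 35 genes, and replicate 1 had the highest for 37. The spread between replicates was small, with a median SD of the log2 values of 0.067 in wild-type and 0.082 in *Rdh10* KO.

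**Figure D2:**
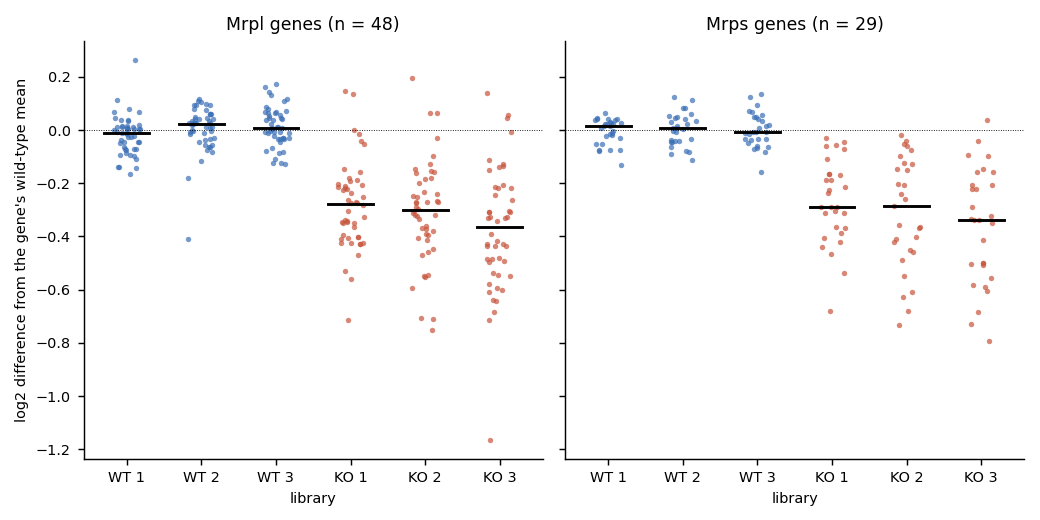
For each *Mrpl* gene (left, n = 48) and *Mrps* gene (right, n = 29), the log2 difference from the wild-type mean of that gene is plotted for the wild-type (WT, blue) and *Rdh10* KO (KO, red) libraries, with a black bar at the median and random sideways spread of the points. The medians of the *Rdh10* KO libraries over all 77 genes lie between -0.34 and -0.28, and those of the wild-type libraries lie near 0.

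*Mrpl20*, which encodes a large subunit protein with a bacterial counterpart, fell the most. Its wild-type values were 2054, 2048 and 2035 normalized counts and its *Rdh10* KO values 1388, 1255 and 913. The groups were far apart, and replicate 3 was the lowest of the *Rdh10* KO values. The log2 fold change was -0.81 (SE 0.12, limma adjusted p = 0.0004), and it lay between -0.93 and -0.63 when single libraries were left out. *Mrpl20* also had the highest level per length of all 77 genes, 3270 normalized counts per kb of mRNA as the mean of the 6 libraries. On GRCm38 it lies on the plus strand of chromosome 4, from 155802878 to 155809975.

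Among the other large subunit genes, *Mrpl41*, whose product is found in mitoribosomes and not in bacterial ribosomes, had 829, 841 and 807 normalized counts in wild-type and 625, 490 and 528 in *Rdh10* KO (log2 fold change -0.60, SE 0.10, limma adjusted p = 0.00091). *Mrpl46*, another gene for a protein particular to mitoribosomes, had 865, 807 and 733 against 634, 530 and 487 (log2 fold change -0.55). *Mrpl34* had 1323, 1249 and 1343 in wild-type and 986, 892 and 859 in *Rdh10* KO (-0.52). The lowest wild-type value of each of these genes was well above its highest *Rdh10* KO value. *Mrpl11*, which encodes the protein at the base of the stalk where translation factors bind, had 1711, 1724 and 1638 against 1259, 1220 and 1085 (-0.51). *Mrpl27*, for a protein that reaches the site of peptide bond formation, had 554, 622 and 574 against 434, 397 and 401 (-0.51). *Mrpl35* had 918, 961 and 1013 against 718, 772 and 599 (-0.48). All of these decreases passed the test, with limma adjusted p-values from 0.00054 for *Mrpl11* to 0.0042 for *Mrpl35*.

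Among small subunit genes, *Mrps18c*, for a counterpart of bacterial S18, fell the most. It had 1077, 1093 and 1014 normalized counts in wild-type and 662, 696 and 612 in *Rdh10* KO, with a log2 fold change of -0.69 (SE 0.085, limma adjusted p = 0.00010). *Mrps24*, for a protein near the entry of the mRNA channel, had 894, 872 and 921 against 661, 539 and 595 (-0.59). *Mrps22*, whose product is particular to mitoribosomes, had 1047, 1069 and 1203 against 761, 786 and 777 (-0.51), and its *Rdh10* KO values were the closest together of these genes. *Mrps7*, for a protein of the head of the small subunit, had 1645, 1590 and 1553 against 1219, 1091 and 1066 (-0.51). *Mrps11* had 980, 986 and 901 against 782, 595 and 649 (-0.51). For the last 4, limma adjusted p-values ranged from 0.00056 for *Mrps7* to 0.0033 for *Mrps11*, and none of the small subunit genes named here had overlapping groups.

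**Figure D3:**
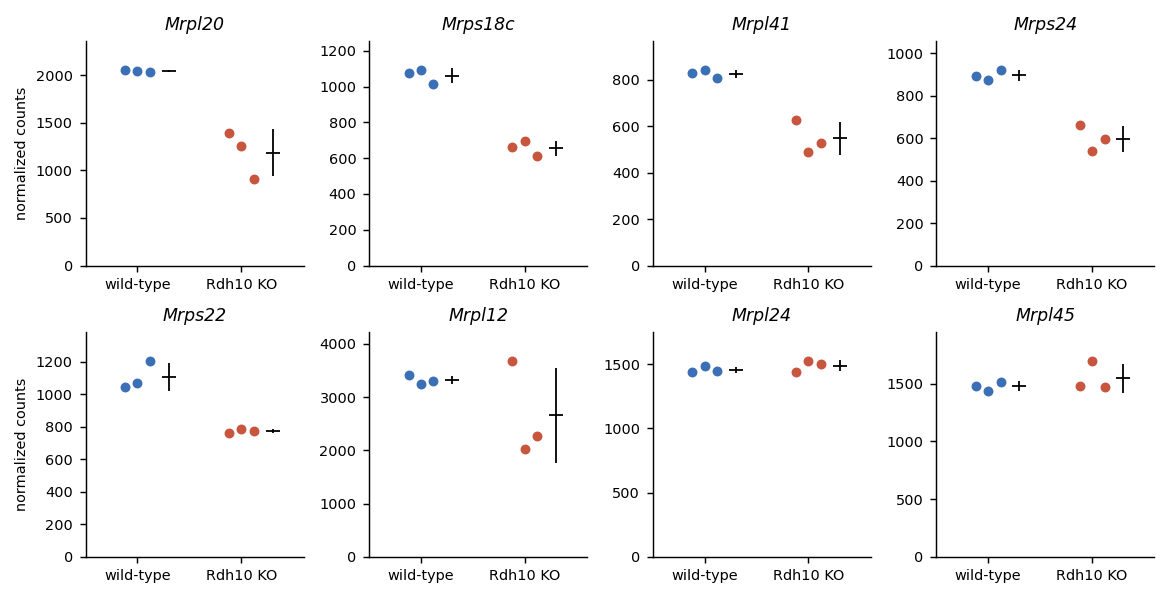
Normalized counts of 8 genes in each wild-type (blue) and *Rdh10* KO (red) library, on axes that start at 0, with the mean and SD of the 3 libraries beside the points. The groups are apart for *Mrpl20*, *Mrps18c*, *Mrpl41*, *Mrps24* and *Mrps22*, 1 *Rdh10* KO library of *Mrpl12* lies above the wild-type values, and the groups overlap for *Mrpl24* and *Mrpl45*.

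The smallest called decreases began with *Mrpl15*, which had 1663, 1673 and 1648 normalized counts in wild-type and 1460, 1400 and 1428 in *Rdh10* KO, a log2 fold change of -0.22 (SE 0.069, limma adjusted p = 0.040). *Mrpl49* (-0.24), *Mrpl37* (-0.27), *Mrpl39* (-0.27), *Mrpl40* (-0.28) and *Mrpl22* (-0.29), the last for a protein that lines the tunnel through which the new peptide leaves, were called with groups that did not overlap. So were *Mrps27* (-0.30), *Mrpl28* (-0.33), *Mrpl54* (-0.34), *Mrpl43* (-0.35), *Mrps18b* (-0.35) and *Mrpl52* (-0.35), to complete the 12 called genes with the highest fold changes. *Mrpl40* was the nearest to the threshold on the called side (limma adjusted p = 0.045), and *Mrpl1* (0.052), *Mrpl10* (0.053) and *Mrps14* (0.055) were the nearest on the other side, with log2 fold changes of -0.25, -0.23 and -0.26. These last 3 also had no overlap between groups.

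**Figure D4:**
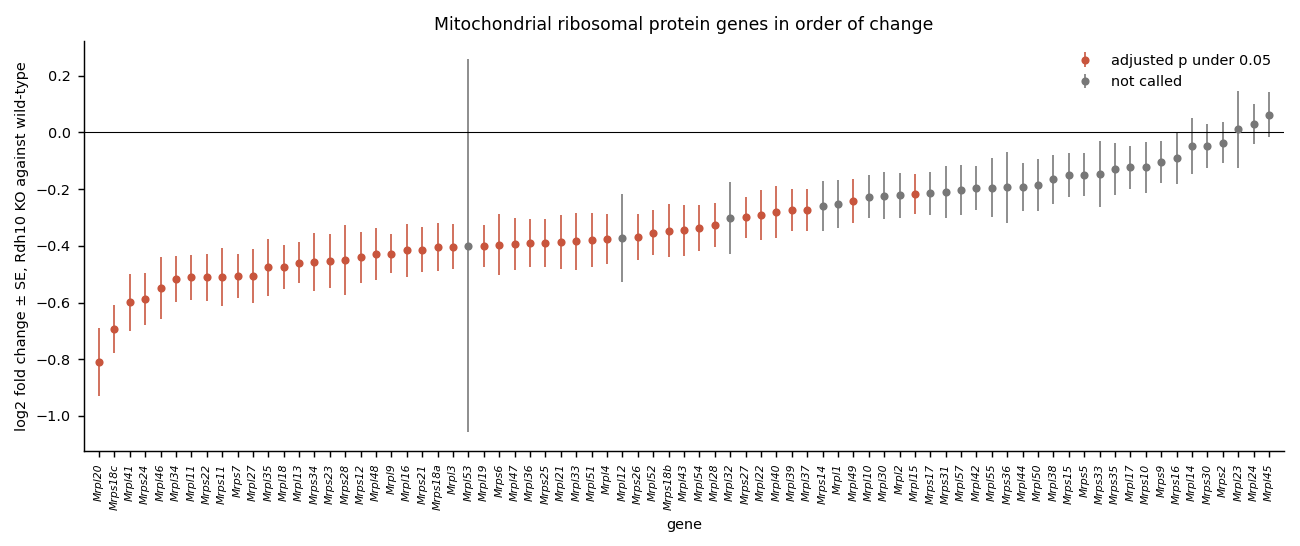
The log2 fold change in *Rdh10* KO against wild-type, with its SE, for each of the 77 genes in order. Red points had an adjusted p-value under 0.05 (46 genes) and grey points did not. The long bar belongs to *Mrpl53*, which had few reads.

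At the other end, 3 genes had a log2 fold change above 0, and none of these passed the test. *Mrpl45*, whose product holds the mitoribosome at the inner membrane, had 1483, 1436 and 1519 normalized counts in wild-type and 1479, 1695 and 1471 in *Rdh10* KO (log2 fold change 0.06, SE 0.079, limma adjusted p = 0.65). *Mrpl24* had 1440, 1483 and 1445 against 1441, 1523 and 1501 (0.03, SE 0.071, limma adjusted p = 0.81). *Mrpl23* had 233, 205 and 261 against 255, 208 and 241 (0.01, SE 0.14, limma adjusted p = 0.97). The products of *Mrpl23* and *Mrpl24* lie around the exit of the peptide tunnel. For all 3 the groups overlapped. The signs of these 3 values turned under other settings, to -0.028 for *Mrpl23* and -0.0083 for *Mrpl24* under median scaling and to -0.0040 for *Mrpl45* without *Rdh10* KO replicate 2. *Mrps2* had closely spaced values, 1196, 1210 and 1213 against 1182, 1172 and 1173 (log2 fold change -0.04, limma adjusted p = 0.78), although its groups did not overlap.

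A few genes differed between the *Rdh10* KO libraries. *Mrpl12*, for the stalk protein that recruits translation factors, had 3409, 3253 and 3306 normalized counts in wild-type and 3675, 2028 and 2273 in *Rdh10* KO. Replicate 1 lay above all wild-type values and the others lay well below them, and the log2 fold change of -0.37 (SE 0.15) had a limma adjusted p of 0.12. Without *Rdh10* KO replicate 1 it was -0.63 (limma adjusted p = 0.00044). *Slc25a10*, the next protein-coding gene downstream of *Mrpl12* on chromosome 11 and named here after its values were seen, had 979, 904 and 890 normalized counts in wild-type and 968, 540 and 537 in *Rdh10* KO. Its *Rdh10* KO replicate 1 also lay at the level of wild-type, within the wild-type values, and the others lay well below. *Hgs*, on the other side of *Mrpl12*, had 1398, 1368 and 1614 in *Rdh10* KO against 1325, 1332 and 1095. *Mrpl32* had 768, 759 and 769 in wild-type and 552, 800 and 542 in *Rdh10* KO, with replicate 2 above the wild-type values (log2 fold change -0.30, limma adjusted p = 0.12). *Mrpl53* had too few reads for a comparison, with values of 4.45 to 7.16 in wild-type and 3.58 to 5.33 in *Rdh10* KO, and 88.0% of its exon length is shared with another gene annotated on the same strand.

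The levels of the genes, per kb of mRNA so that genes of different length can be set side by side, spread widely. After *Mrpl20*, the highest mean levels over the 6 libraries were those of *Mrpl42* (2421 normalized counts per kb), *Mrpl30* (2323), *Mrpl12* (2273) and *Mrpl52* (2096). Apart from *Mrpl53* at 7.63, the lowest were those of *Mrps25* (159), *Mrps26* (204), *Mrpl57* (215) and *Mrps35* (216). These values depend on the transcript length taken from the annotation, which was the median of the coding transcripts. *Mrps25* shares 69.8% of its exon length with *Nr2c2* on the other strand. Over 76 genes, leaving out *Mrpl53*, the log2 fold change was hardly related to the wild-type mean (Spearman's rho across genes -0.04). It was higher for genes with longer exons (rho 0.28) and lower for those with a higher GC content (rho -0.25). A relation with exon length was also present over 15236 genes with a mean above 10 (rho 0.26), while that with GC content was near 0 there (-0.03). Genes are not independent replicates, and these genes share the same 6 libraries. When the trends with GC content and exon length were removed from each library, the 77 genes had a median log2 fold change of -0.32 and 51 were decreased, against 13.0% of all genes in that fit.

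The fold changes can be read beside the motifs of the promoters printed above. Of the 39 decreased genes with a promoter, 51.3% held the ETS core CCGGAAG, against 17.2% of the 29 genes that were not called. The YY1 core AAGATGG was in 28.2% and 6.90%, and the NRF1 core CGCNTGCG in 25.6% and 34.5%. The 25 genes with CCGGAAG had a median log2 fold change of -0.39 and the 43 without it -0.25. For AAGATGG these medians were -0.39 (13 genes) and -0.29, and for CGCNTGCG -0.28 (20 genes) and -0.39. The motifs were chosen with the fold changes known, so these shares are a description without a test. *Mrpl45*, which was printed for its fold change, had several copies of the NRF1 core and none of the ETS and YY1 cores in its promoter. *Mrpl23* and *Mrpl24*, the other genes with a log2 fold change above 0, held none of these cores.

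Many of these genes start beside another gene. A protein-coding gene on the other strand started within 500 bases of the start of 25 of the 77 genes, or 32.5%, against 11.5% of 16283 tested protein-coding genes. Of these 25 genes, 17 were decreased, or 68%, against 59.7% of all 77. The 23 tested neighbours that are not mitoribosomal had a median log2 fold change of -0.10. Of these neighbours, 7 were decreased (30.4%, against 12.1% of tested protein-coding genes) and 3 increased (13.0%, against 13.6%). *Ndufs6*, for a subunit of respiratory complex I, starts beside *Mrpl36* and had a log2 fold change of -0.37 (*Mrpl36* -0.39), and *Psma2*, for a proteasome subunit, starts beside *Mrpl32* and had -0.43. In contrast, *Ncapd2*, for a condensin subunit, had 0.37 beside *Mrpl51* with -0.38, and *Wdfy1* had 0.46 beside *Mrpl44* with -0.19. These 4 neighbours passed the test in their own directions, and *Mrpl44* (limma adjusted p = 0.14) and *Mrpl32* did not. *Mrpl46* and *Mrps11*, which start 412 bases apart on opposite strands and share 173 bases of exon, fell together. Exons of 32 of the 77 genes overlap those of another gene, for 24 of them on the other strand only, and whether reads were counted by strand is not given in the sources used here. Of the 32, 25 were decreased (median log2 fold change -0.39), and of the 45 genes without such overlap 21 were (median -0.25). *Mrps34* shares 63.4% of its exon length with *Mapk8ip3* on the other strand, and the 2 moved in opposite directions, with log2 fold changes of -0.46 and 0.68.

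Mitoribosomal protein genes that carry other names were mostly lower as well. Of 5 such genes, 4 were decreased: *Chchd1* (log2 fold change -0.45), *Gadd45gip1* (-0.36), *Ptcd3* (-0.34) and *Aurkaip1* (-0.34). *Chchd1* had 1773, 1892 and 2052 normalized counts in wild-type and 1370, 1588 and 1253 in *Rdh10* KO (limma adjusted p = 0.0040). *Dap3*, which encodes a GTP-binding protein of the small subunit, had 1721, 1586 and 1779 in wild-type and 1945, 1815 and 1957 in *Rdh10* KO. Its *Rdh10* KO values were all above those of wild-type, but with a log2 fold change of 0.17 it did not pass the test (limma adjusted p = 0.14).

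Genes for the machinery around the mitoribosome were counted in separate lists, to be read beside the 9.12% decreased and 10.3% increased among all genes and the 17.2% and 18.2% among the 8258 other genes in the range of levels given above. Of 27 genes for mitoribosome assembly and rRNA modification, 8 were decreased and 0 increased (median log2 fold change -0.19). They included *Rnmtl1* (now *Mrm3*, -0.63) and *Ftsj2* (now *Mrm2*, -0.55), for methyltransferases of the large rRNA, *Mpv17l2* (-0.56), *Ddx28*, for an RNA helicase (-0.47), and *Nsun4* (-0.47). Of 16 genes for translation factors and related proteins, 4 were decreased and 0 increased (median -0.08). *Slirp*, whose product stabilises mitochondrial mRNAs, had 1311, 1373 and 1470 normalized counts in wild-type and 918, 976 and 860 in *Rdh10* KO, a log2 fold change of -0.59 (SE 0.082, limma adjusted p = 0.00025). The elongation factor genes *Gfm1* (-0.43) and *Tsfm* (-0.35) and *Taco1* (-0.38), for an activator of translation, also fell. Of 20 genes for the charging of mitochondrial tRNAs, 5 were decreased and 2 increased (median -0.17). Among them *Cars2* (-0.55), *Qrsl1* (-0.44), *Yars2* (-0.43) and *Aars2* (-0.35) fell, while *Wars2* (0.31) and *Lars2* (0.25) rose.

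Genes for the upkeep and reading of mitochondrial DNA also changed in both directions. Of 11 such genes, 4 were decreased and 1 increased (median log2 fold change -0.22). *Tfb2m*, for a factor that opens the promoter for transcription, had 223, 199 and 227 normalized counts in wild-type and 163, 138 and 133 in *Rdh10* KO (log2 fold change -0.58, limma adjusted p = 0.0099). *Elac2* (-0.31), *Polrmt*, for the mitochondrial RNA polymerase (-0.30), and *Ssbp1* (-0.29) fell, and *Mgme1*, for a nuclease of mitochondrial DNA, rose (0.33). *Tfam*, for the main packaging protein of mitochondrial DNA, had a log2 fold change of -0.22 and did not pass the test (limma adjusted p = 0.053). Of 9 genes for nuclear regulators of mitochondrial biogenesis, 1 was decreased (11.1%, against 9.12% of all genes tested) and 1 increased (median log2 fold change 0.01). *Nrf1*, whose site was searched for above, had 1915, 1801 and 1878 normalized counts in wild-type and 1581, 1577 and 1533 in *Rdh10* KO (log2 fold change -0.25, SE 0.069, limma adjusted p = 0.019). *Ppargc1b*, for a coactivator of such genes, was low and rose from 41.9, 43.4 and 27.3 to 78.1, 78.9 and 116 (log2 fold change 1.28, limma adjusted p = 0.0037). *Gabpa* and *Yy1*, for factors of the other cores searched for above, were not called. Their log2 fold changes were 0.01 and 0.03 (limma adjusted p = 0.95 and 0.84).

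The mRNAs that the mitoribosome itself translates were also compared. Of the 7 with over 10 normalized counts in every library, 5 were decreased, 1 was increased and 1 was not called. The mitochondrial genome encodes 13 proteins, and the mRNAs of the other 6 (*mt-Atp6*, *mt-Atp8*, *mt-Co2*, *mt-Co3*, *mt-Nd3* and *mt-Nd4l*) were listed at 0 to 5.64 normalized counts in every library and cannot be compared. *mt-Nd1*, for a subunit of complex I, had 59556, 64377 and 71656 normalized counts in wild-type and 49612, 48091 and 29967 in *Rdh10* KO (log2 fold change -0.65, limma adjusted p = 0.0068). *mt-Cytb* (-0.62), *mt-Nd4* (-0.59), *mt-Nd5* (-0.55) and *mt-Nd2* (-0.46) also fell, with groups that did not overlap. *mt-Co1* had a log2 fold change of -0.38 and did not pass the test (limma adjusted p = 0.084). *mt-Nd6*, on the other strand of the mitochondrial genome, had 393, 337 and 534 in wild-type and 936, 748 and 481 in *Rdh10* KO, and was called increased (log2 fold change 0.75, limma adjusted p = 0.018) although its groups overlapped. *Rdh10* KO replicate 3 held 154505 normalized counts over the 13 genes, against 235643 and 250220 in replicates 1 and 2 and 280983 to 330223 in wild-type. Without replicate 3 the log2 fold change of *mt-Nd1* was -0.41 (limma adjusted p = 0.0035), and that of the 77 mitoribosomal protein genes had a median of -0.30.

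**Figure D5:**
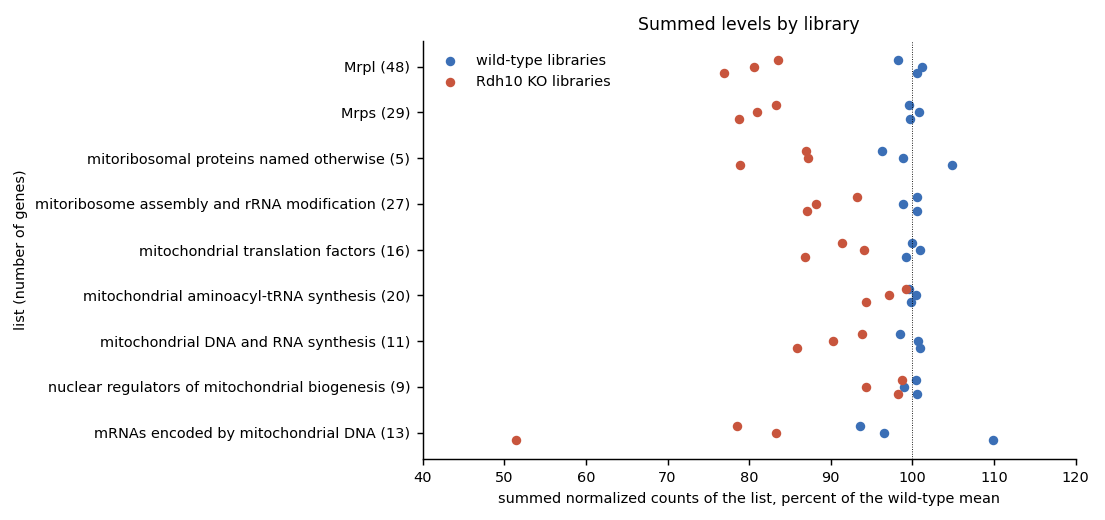
Summed normalized counts of *Mrpl* and *Mrps* genes and of 7 other mitochondrial lists in each wild-type (blue) and *Rdh10* KO (red) library, in percent of the wild-type mean of the list. *Rdh10* KO libraries lie between 76.9% and 83.6% for *Mrpl* and *Mrps* genes, between 94.3% and 99.2% for tRNA charging, and at 51.4%, 78.5% and 83.3% for the mRNAs of the mitochondrial genome.

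The libraries and their tissues were checked with other genes. *Rdh10* itself had 399, 342 and 381 normalized counts in wild-type and 183, 142 and 181 in *Rdh10* KO. Each library had between 16392777 and 27101025 reads counted on genes. Summed over 8 markers each, *Rdh10* KO was at 108% of wild-type for the optic vesicle, 105% for craniofacial mesenchyme, 100.6% for forebrain and 106% for surface ectoderm. The 8 endothelial markers were at 127%, with 3992 to 4555 normalized counts in wild-type and 5210 to 5675 in *Rdh10* KO, and 4 of them were increased. Heart markers were low in both groups, 2 of the 8 with at most 3 reads in every library, and their sum was 96.9 to 137 normalized counts in wild-type and 161 to 309 in *Rdh10* KO. Blood markers varied between libraries, with 51096, 120295 and 156724 normalized counts in *Rdh10* KO replicates 1 to 3 and 100748 to 135609 in wild-type. Among the *Rdh10* KO libraries, the one with the lowest blood sum, replicate 1, had the highest sum of the 77 genes, and replicate 3 had the highest blood sum and the lowest sum of the 77 genes. The sum of the 77 genes was below every wild-type library in all 3, with blood sums below, within and above the wild-type range. The part of blood, endothelium or other tissue in the decrease was not tested.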

How the data were processed

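RNA-seq of E10 frontal head tissue was analysed in 3 wild-type and 3 *Rdh10* KO libraries, each from a pool of 3 embryos. The authors made directional, poly(A)-selected libraries, aligned reads to mm10 with TopHat and deposited 1 signal value for each gene and library. The study names Expectation–Maximization for estimating abundance. The counting tool and the strand setting are not given in the sources used here. The study names FPKM as the unit, but the deposited signal is whole reads divided by a single factor per library (0.850 to 1.40, equal to the median-of-ratios size factor) with no division by gene length. Whole reads came back for 100% of the values at a tolerance of 0.1 reads. The values were therefore used as normalized counts in place of FPKM, and 1 line without a gene name was left out. 1 read is worth 0.716 to 1.18 normalized counts. *Mrpl53* had 4 to 7 reads in each library, and the other members had at least 154.

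Genes with a mean above 0.5 entered limma (version 3.58.1, R version 4.3.3) as log2(value + 0.1). The linear model had the group as its only term, the moderated variances followed a trend with intensity, and the code was first tried on simulated counts. The alternatives, including edgeR 4.0.16 and DESeq2 1.42.0 on the recovered reads, are given in the closing section. All 77 genes passed the filter and matched GENCODE mouse release 21, which gave positions, overlaps, lengths (the median coding transcript for levels per kb) and GC content. Tables and plots were made with Python 3.11.15, pandas 2.3.3, numpy 2.4.6 and matplotlib 3.10.9.

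The genes, lists, markers and motifs were chosen with earlier results of these data known. Named are 24 called genes (12 from the bottom and 12 from the top of the called fold changes), the 5 highest and 5 lowest by level per kb, the 3 extremes at each end, called genes of the other mitochondrial lists (at most 5 for each list and direction) and *Rdh10*. Not every gene that this rule names is reported here. Other genes named (those near the threshold, with uneven libraries, or beside or overlapping a member) were chosen after their values were seen. The 4 pseudogenes left out of the set are *Mrpl23-ps1*, *Mrpl48-ps*, *Mrps36-ps1* and *Mrps36-ps2*.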

Additional observations from a re-analysis of the deposited data

How the results depend on the processing

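No alternative called any of the 77 genes increased, and none of the 46 decreased genes changed sign. The number decreased was 45 to 53 with a pseudocount of 1 or 0.01, without a filter or with a stricter one (at a mean above 10, 76 genes were left and 51 decreased), quantile normalization, median scaling, the GC and length correction, the edgeR quasi-likelihood test (46), the edgeR likelihood ratio test (45) and DESeq2 (51). In these fits 8.02% to 15.6% of all genes tested were decreased. The number of the 77 was 58 with unadjusted p-values, against 14.9% of all genes. Without single libraries it was 31 to 45, against 4.36% to 9.11% of all genes. Both the lowest number, 31, and the lowest share, 4.36%, came without wild-type replicate 2. It was 2 in limma without the intensity trend, against 0.859% of all genes, and 0 with the log2 cut-off of 0.85, against 0.886%. The labels do not say whether libraries with the same replicate number were paired. Deviations of same-numbered libraries from their group means correlated at -0.026, -0.035 and -0.074 over 15272 genes. These values show no large shared effect, but they cannot tell whether such libraries were prepared together. With a replicate block 37 were decreased, against 6.05% of all genes. With the block and the GC and length correction 44 were, against 10.7%. Of the 46 genes, 28 were decreased without each of the 6 libraries in turn, and 2 under all 19 alternatives that fit every gene. The median log2 fold change of -0.35 moved to -0.39 under median scaling and lay between -0.34 and -0.30 without single libraries. The number of genes with higher *Rdh10* KO values without overlap, 0, was 0 to 1 without single libraries (1 without *Rdh10* KO replicate 1). Signs turned for 4 genes, none of them called. *Mrpl23* had -0.072 under quantile normalization, -0.028 under median scaling, -0.048 with the GC and length correction with and without the block, and -0.078 to 0.098 without single libraries. *Mrpl24* had -0.0083 under median scaling, and *Mrpl45* -0.0040 to 0.098 without single libraries. *Mrpl14* (-0.05) had 0.016 with the GC and length correction with and without the block and 0.0062 without *Rdh10* KO replicate 1. The cause of these differences was not tested. At 4 to 7 reads, no change of *Mrpl53* was detectable.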

Other observations

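Of the 4 pseudogenes of the family, 1 was called. *Mrpl48-ps*, a processed pseudogene, had 22.5, 17.8 and 14.1 normalized counts in wild-type and 56.6, 48.0 and 77.7 in *Rdh10* KO, so that all *Rdh10* KO values were above those of wild-type (log2 fold change 1.73, limma adjusted p = 0.0018). *Mrpl48* itself had 680, 648 and 620 in wild-type and 483, 502 and 461 in *Rdh10* KO (log2 fold change -0.43, limma adjusted p = 0.0044). Reads of a gene and its processed copy can be hard to tell apart, and the study names Expectation–Maximization for estimating abundance, while the deposited values are whole reads. *Mrpl23-ps1* had 25.6, 28.9 and 35.7 normalized counts in wild-type and 35.8, 34.1 and 25.9 in *Rdh10* KO (log2 fold change 0.09, limma adjusted p = 0.89), and the pair of *Mrps36* pseudogenes had at most 6.68 in any library.

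The chromosome of *Rdh10*, chromosome 1, holds 5 of the 77 genes. *Mrpl15*, 11.3 Mb from *Rdh10*, was the nearest and the single one of these called (log2 fold change -0.22), and the other 4, at 21.8 to 144 Mb, had log2 fold changes from -0.26 to -0.10.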
